A study of Arabidopsis thaliana with 15 samples.

Results

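Roots of Arabidopsis thaliana seedlings that stood for 2 h in a mix of hydrogen peroxide and the dye Rose Bengal were compared with roots that stood for 3 h in the dye alone. The comparison rests on 6 of the 15 root libraries of the study, 3 in each group, chosen by their labels. The combined group (RBH 2 h) received 5 mM H2O2 with 10 µM dye, which its labels write as MRB, a form they do not explain. The dye group (RB 3 h) received 10 µM RB with no H2O2. The other 9 libraries, 3 in each group, are roots in water, labelled 1 h although their titles give time 0, and roots in 10 µM RB for 1 h and for 2 h. All seedlings were wild type of the ecotype Columbia-0, 7 days old, grown at 21 °C on a medium with sucrose, with 16 h of light a day. Each library came from the pooled roots of 30 to 50 seedlings, separated from the shoots after treatment. The groups compared differ both in H2O2 and in time in solution, and the effects of the 2 cannot be told apart. Roots in H2O2 alone were not analysed here, and no source used here states the light during treatment.

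Rose Bengal is a photosensitiser: once lit it hands its energy to dissolved oxygen, which becomes singlet oxygen, a short-lived oxidant that attacks lipids and proteins near its source. Hydrogen peroxide lives longer, crosses membranes partly through aquaporins, oxidises protein thiols and is removed by catalases and ascorbate peroxidases. Plants answer the 2 oxidants with programmes that overlap in part, among them heat shock proteins, detoxification enzymes, transcription factors of the ERF, WRKY and zinc finger families, and the hormones jasmonate, salicylate and abscisic acid.

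Library totals ran from 1500423 to 6230975 counts in RBH 2 h and from 1364525 to 4389349 in RB 3 h. In a principal component analysis of log2 CPM (counts scaled by library total) over 9891 genes, the first component carried 42.5% of the variance and ordered water and the dye times. On it RBH 2 h libraries scored 29.3 to 37.5 and RB 3 h libraries 34.0 to 42.5, so that the ranges overlapped, while water scored -74.6 to -60.2. The second component, 16.1% of the variance, set the groups apart, with scores of 41.5 to 46.8 in RBH 2 h, against -22.2 to -20.3 in RB 3 h. By edgeR's quasi-likelihood test at a Benjamini-Hochberg adjusted p under 0.05, which defines a call throughout, 2671 genes (27%) differed between RBH 2 h and water and 3238 (32.7%) between RB 3 h and water. None of the 9 markers of the root endodermis in the table was at 0 in either group. Photosynthesis genes, listed as markers of green shoot tissue, made up 0.0998 to 0.159% of the counts in RBH 2 h libraries, 0.0521 to 0.0595% of those in RB 3 h libraries and 0.101 to 0.145% of those in water libraries. Their part in the other differences was not tested, and in bulk roots fewer cells of a type and less RNA per cell cannot be told apart.

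**Figure D1:**
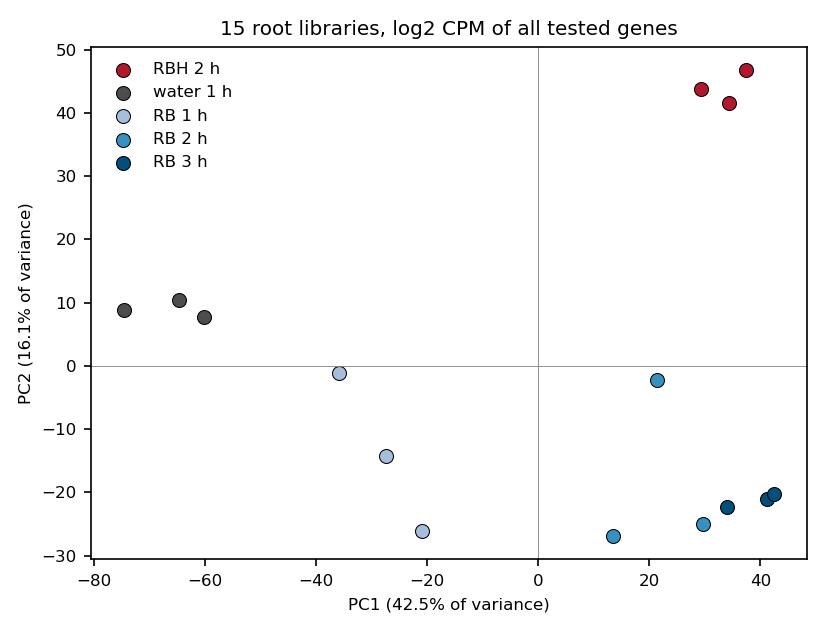
Scores of the 15 root libraries on the first and second principal components of log2 CPM over 9891 genes, 1 point per library, with the percentage of variance on each axis. The RBH 2 h libraries score 29.3 to 37.5 on the first axis, within reach of the RB 3 h libraries at 34.0 to 42.5, and stand alone on the second axis at 41.5 to 46.8.

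Of 9891 genes tested, 1822 (18.4%) differed between RBH 2 h and RB 3 h. The level was higher in RBH 2 h for 1095 genes (11.1%), 571 of them at least 2-fold, and lower for 727 (7.35%), 463 of them at least 2-fold. CPM ranges did not overlap between the 2 groups for 3797 genes (38.4%). The authors' deposited table also holds this contrast, written as RB 3 h over RBH 2 h. It marks 921 genes, of which 521 were higher in RBH 2 h and 400 lower. All marked genes had an adjusted p under 0.05 and a change of at least 2-fold. At both limits 1034 genes were called here, so the 921 do not compare with the 1822. Of the 898 marked genes tested here, 888 were called here, all 888 in the authors' direction.

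To place the differences relative to the dye response, each gene's level in RBH 2 h was set against the 4 group means of water and of RB at 1, 2 and 3 h. A gene stood outside this dye course where RBH 2 h differed from all 4 groups in the same direction, by the largest of its 4 p-values after adjustment over all genes. That held for 221 genes above the course (2.23%) and 96 below it (0.971%), with a smallest difference from the course of at least 2-fold for 166 and 67 of them. Another 565 genes called higher and 369 called lower had a mean past all 4 means but did not pass that test. The remaining 309 genes called higher and 262 called lower had a mean between the extremes of the course. These 571 genes were 31.3% of the called genes, while 51.7% of all tested genes lay between the extremes. Among the 309, the nearest course mean was that of water for 117, RB 1 h for 152, RB 2 h for 39 and RB 3 h for 1. Among the 262, it was water for 68, RB 1 h for 119, RB 2 h for 74 and RB 3 h for 1. All of these genes were chosen for differing from RB 3 h, so few could lie nearest to it. That choice also shaped the split over the other means. A level on the course is a position only and does not show that the gene followed the dye response at an earlier time. A level outside it is also a position only. Genes that rose or fell steadily along the dye times can pass the test by lying further along. The test therefore cannot tell a difference in kind from further progress. Without RBH 2 h replicate c, 202 genes stood outside the course, 37 of them below it, and without RB 3 h replicate b 60 stood below it. Without RB 3 h replicate a, 453 genes were called lower.

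**Figure D2:**
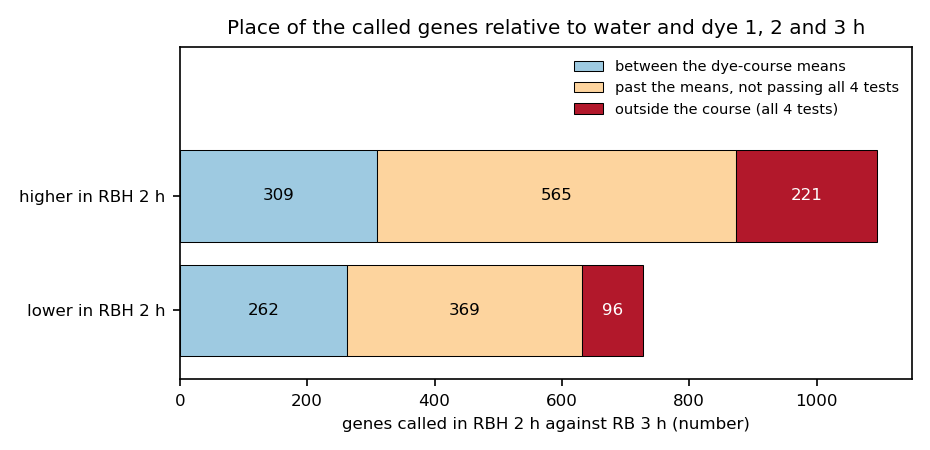
Number of genes called higher (upper bar) or lower (lower bar) in RBH 2 h against RB 3 h, split by where the RBH 2 h level lay relative to water and to RB at 1, 2 and 3 h. The outer red segments hold the 221 and 96 genes outside the dye course, and the blue segments the 309 and 262 genes between the extremes of the course.

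Among the named genes farthest above the dye course were enzymes of jasmonate synthesis. AOC2 (AT3G25770), an allene oxide cyclase that makes the jasmonate precursor OPDA, was at 72.1, 101 and 104 CPM in RBH 2 h, against 4.9, 3.02 and 2.87 CPM in RB 3 h. Its log2 fold change was 4.55 (SE 0.36, adjusted p = 2.59e-08), and water, RB 1 h and RB 2 h libraries reached at most 8.06 CPM. Its neighbour AOC1 (AT3G25760) was at 46.8, 53.6 and 41.7 CPM in RBH 2 h, against 2.56, 2.02 and 2.15 CPM in RB 3 h (log2 fold change 4.31, SE 0.41, adjusted p = 2.12e-07). The AOC genes are close copies, so reads near the 3′ end may be split among them in counting. AOC3, the most abundant of them, was at 465 to 530.2 CPM in RBH 2 h, against 243 to 338 CPM in RB 3 h (log2 fold change 0.84, SE 0.23, adjusted p = 0.0117). Leaving out RB 3 h replicate a or b ended that call, at adjusted p of 0.0637 and 0.0635.

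The jasmonate list as a whole did not move as a block: 7 of 19 tested members rose and 1 fell. That was 36.8% and 5.26%, against 11.1% and 7.35% over all genes tested. The list's median log2 fold change was 0.46, against 0.000713 over all genes tested. The enzymes before and after the cyclase step, AOS and OPR3, overlapped between the groups, with log2 fold changes of 0.09 (SE 0.20, adjusted p = 0.805) and 0.09 (SE 0.24, adjusted p = 0.841). CYP94C1, which oxidises the active jasmonate conjugate, rose to 19.2, 16.1 and 13.4 CPM, against 3.41, 3.53 and 4.3 CPM in RB 3 h (log2 fold change 2.10, SE 0.39, adjusted p = 0.000517). MYC2, the transcription factor at the head of jasmonate signalling, fell to 13.8, 26.5 and 21.5 CPM, against 60.5, 52.9 and 59.5 CPM in RB 3 h (log2 fold change -1.46, SE 0.37, adjusted p = 0.00843). Without RB 3 h replicate b, 3 members of the list rose, and without RBH 2 h replicate b or RB 3 h replicate a, 4 did.

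Several genes of other families stood as far out. PMAT2 (AT3G29670), which attaches malonyl groups to phenolic glucosides, was at 36, 47.8 and 37.9 CPM in RBH 2 h, against 1.7, 1.01 and 1.43 CPM in RB 3 h (log2 fold change 4.74, SE 0.41, adjusted p = 7.23e-08). No library of water, RB 1 h or RB 2 h exceeded 1.49 CPM for this gene. DIN11 (AT3G49620), a 2-oxoglutarate-dependent oxygenase first described as induced in the dark, reached 69.8, 121 and 161 CPM, against 5.54, 2.52 and 5.01 CPM in RB 3 h (log2 fold change 4.69, SE 0.41, adjusted p = 1.52e-07). For CXE17 (AT5G16080), a carboxylesterase, the values were lower, 12.3, 10.3 and 13.9 CPM, against 1.28, 0 and 0 CPM in RB 3 h (log2 fold change 4.06, SE 0.73, adjusted p = 0.000351). The polyol transporter gene PMT6 (AT4G36670) and the beta-galactosidase gene BGAL8 (AT2G28470) also stood above the course, with log2 fold changes of 3.61 (SE 0.36, adjusted p = 2.76e-07) and 3.48 (SE 0.53, adjusted p = 6.36e-05). For all of these genes the lowest RBH 2 h library lay above the highest RB 3 h library, which was a condition for naming them. PMAT2, DIN11, AOC1, AOC2, CXE17, PMT6 and BGAL8 passed the test against the whole course in all 13 alternative settings.

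**Figure D3:**
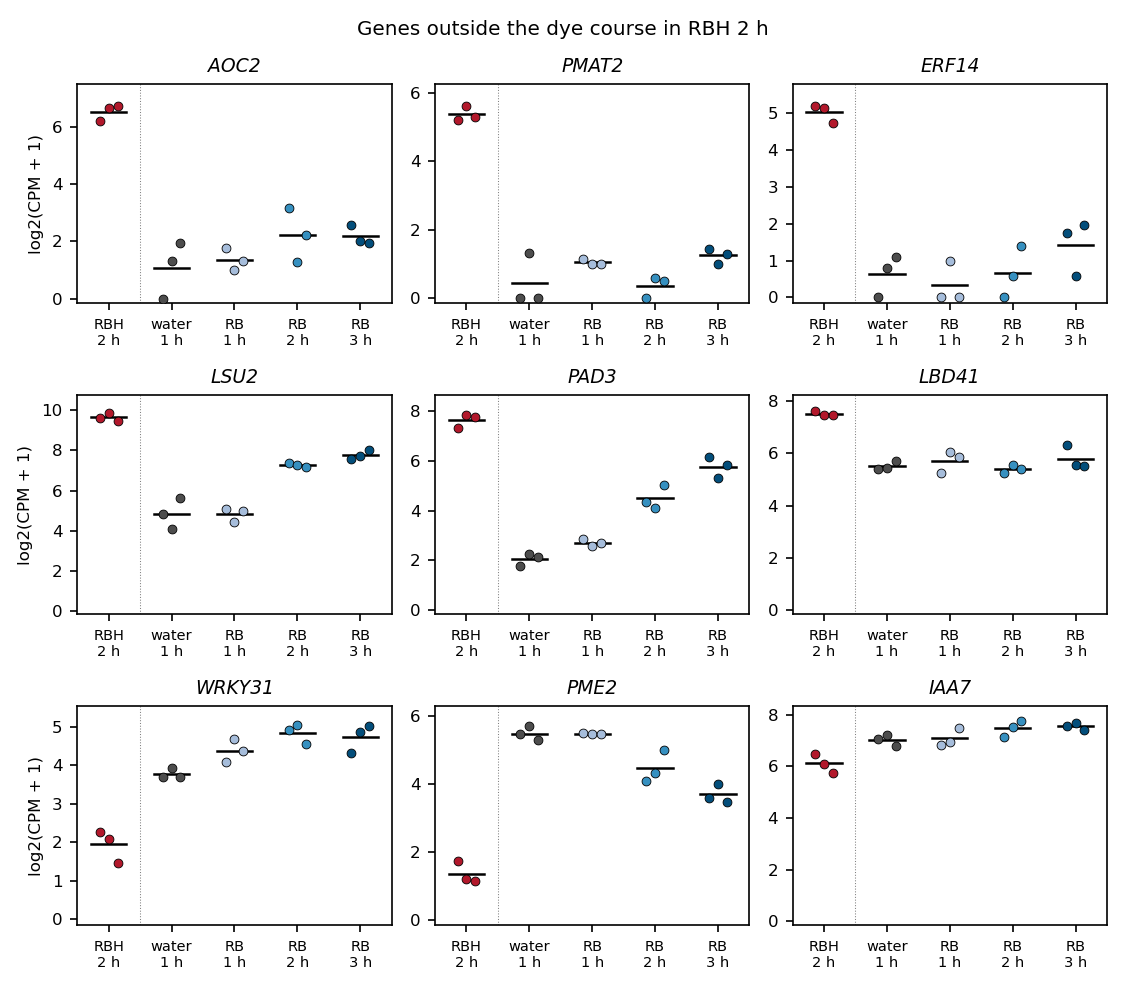
Levels of 9 genes outside the dye course, as log2(CPM + 1), in RBH 2 h (left of the dotted line) and in water and RB at 1, 2 and 3 h, 1 point per library and a bar at the mean of 3. AOC2, PMAT2, ERF14, LSU2, PAD3 and LBD41 are higher in each RBH 2 h library than in any other library, and WRKY31, PME2 and IAA7 are lower.

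Transcription factors of the ERF and DREB families, which bind promoters of stress and ethylene-responsive genes, split by member: 7 of 29 tested rose and 4 fell. These shares were 24.1% and 13.8%, against 11.1% and 7.35% over all genes tested. ERF14 (AT1G04370) was at 35.3, 34.2 and 25.5 CPM in RBH 2 h, against 2.34, 0.504 and 2.87 CPM in RB 3 h (log2 fold change 3.97, SE 0.48, adjusted p = 3.63e-06). AT1G22810, a member of the same list without a symbol in the reference, was at 57.5, 99.5 and 89.8 CPM in RBH 2 h, against 5.75, 4.53 and 5.73 CPM in RB 3 h (log2 fold change 3.93, SE 0.35, adjusted p = 9.40e-08). RAP2.6 rose to 308, 486 and 479 CPM, against 197, 94.2 and 148 CPM in RB 3 h. These 3 stood above the course in every alternative setting.

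The DREB genes ddf2 (AT1G63030) and DDF1 (AT1G12610), related factors that act on gibberellin and cold responses, had large differences but a water library close to them. DDF1 was at 51.4, 64.6 and 74.5 CPM in RBH 2 h and 3.41, 2.02 and 8.6 CPM in RB 3 h, and at 2.39, 30.6 and 0 CPM in water. Its log2 fold change over RB 3 h was 3.93 (SE 0.88, adjusted p = 0.00836), the test against the course was not passed (adjusted p = 0.200), and without RB 3 h replicate a the adjusted p was 0.0568. For ddf2 the 3 RBH 2 h libraries held 83 counts and the 3 RB 3 h libraries 2 counts, a ratio of 39.3 per scaled count (95% counting interval 10.5 to 329.7). RRTF1, a factor induced by redox signals, showed the same high value in water replicate b, 35.1 CPM against 2.39 and 2.85 CPM in the other water libraries, and RBH 2 h libraries stood at 42.9 to 82 CPM, above the RB 3 h libraries at 6.55 to 15.8 CPM (adjusted p = 0.0288). That call ended under 6 alternatives, with adjusted p of up to 0.125. The zinc finger factor ZAT10, listed as STZ, overlapped between the groups, at 2043, 2331 and 1731 CPM in RBH 2 h and 2135, 1899 and 2385 CPM in RB 3 h (adjusted p = 0.854).

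Sulfur assimilation, the reduction of sulfate to cysteine that feeds glutathione, rose above the course in part of its list. Of 10 tested members 5 rose (50%, against 11.1% over all genes tested), all 5 above the course, and none fell. The list's median log2 fold change was 0.71, and its summed level was 7352, 8959.8 and 8032 CPM in RBH 2 h, against 4906, 4745 and 6111 CPM in RB 3 h. In water the sum was 1015 to 1273 CPM, at 1 h of RB 1399 to 1738 CPM and at 2 h 3804 to 4438 CPM. The sum thus rose along the dye times, and RBH 2 h lay past its end at RB 3 h. LSU2, a small protein of the response to low sulfur, was at 782, 913 and 715 CPM in RBH 2 h, against 189.9, 211 and 261 CPM in RB 3 h (log2 fold change 1.87, SE 0.24, adjusted p = 9.35e-06). Its relative LSU1 was at 1333, 1332 and 975 CPM in RBH 2 h, against 295, 328 and 529 CPM in RB 3 h. APS3, an ATP sulfurylase, and the adenylylsulfate reductases APR1 and APR3 had log2 fold changes of 1.71 (SE 0.26), 1.11 (SE 0.22) and 1.00 (SE 0.20). The first enzyme of glutathione synthesis, GSH1, was not called (log2 fold change 0.11, SE 0.18, adjusted p = 0.711). With any 1 of the 6 libraries left out, 5 or 6 members rose.

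In the list of tryptophan, indole glucosinolate and camalexin genes, 8 of 31 tested rose (25.8%, against 11.1% over all genes tested) and none fell. Of the 8, 5 stood above the course. Camalexin is the indole phytoalexin of Arabidopsis. Of the 31, 22 had log2 fold changes above 0 (median 0.45). PAD3, the last enzyme of camalexin synthesis, was at 159, 226 and 213 CPM in RBH 2 h, against 69.9, 38.8 and 55.2 CPM in RB 3 h (log2 fold change 1.85, SE 0.23, adjusted p = 6.18e-06). Along the dye course it averaged 3.18 CPM in water, 5.57 CPM at 1 h and 22.4 CPM at 2 h. Upstream, ASA1, which starts tryptophan synthesis, was at 436, 596 and 602 CPM in RBH 2 h, against 242, 238 and 258 CPM in RB 3 h (log2 fold change 1.15, SE 0.20, adjusted p = 0.000292). TSB1, a tryptophan synthase subunit, had a log2 fold change of 0.86 (SE 0.17, adjusted p = 0.000883). PAD3, ASA1 and TSB1 passed the test against the course in all 13 settings, while the other 2 above it, IGMT2 and TSA1, did not pass without RBH 2 h replicate c and passed in 10 of 13 settings each. The branch-point enzymes CYP79B2, CYP79B3 and CYP83B1 were not called, with log2 fold changes of 0.42, 0.38 and 0.14. Without RBH 2 h replicate b or RB 3 h replicate a, 5 members rose.

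In the list of genes that respond to low oxygen in many organs, 8 of 21 tested members rose, 6 of them above the course, and 4 fell. Called shares were 38.1% higher and 19% lower, against 11.1% and 7.35% over all genes tested. ADH1, alcohol dehydrogenase, was at 50.6, 40.7 and 51.3 CPM in RBH 2 h, against 19.8, 8.57 and 12.2 CPM in RB 3 h (log2 fold change 1.74, SE 0.28, adjusted p = 9.27e-05). LBD41, a transcription factor of that response, was at 196, 174 and 175 CPM in RBH 2 h, against 78.8, 45.3 and 44.4 CPM in RB 3 h, and averaged 41.6 to 53.2 CPM in the other groups. AT4G33560, a wound-responsive family gene, was at 18.4, 20.0 and 22.9 CPM in RBH 2 h, against 1.07, 0 and 0.716 CPM in RB 3 h (log2 fold change 4.75, SE 0.57, adjusted p = 3.37e-06). ADH1, LBD41 and AT4G33560 passed the test against the course in all 13 alternative settings. Not all of the 6 above the course did, the lowest being 7 of 12 settings. The 4 that fell include PDC2, the pyruvate decarboxylase that acts just before ADH1, at 23, 44.6 and 32.6 CPM in RBH 2 h, against 109.7, 69 and 80.2 CPM in RB 3 h (adjusted p = 0.0151). ERF71 and ERF73, oxygen-regulated ERF factors, fell by 1.45 (SE 0.39, adjusted p = 0.0124) and 0.85 (SE 0.22, adjusted p = 0.00708) on the log2 scale. So the members did not move together. Without RB 3 h replicate a none of the list fell, with PDC2, ERF71 and ERF73 at adjusted p of 0.0808, 0.0602 and 0.0958, and without RBH 2 h replicate a or c 2 fell.

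The abscisic acid list, covering synthesis, signalling and dehydration proteins, moved both ways: 4 of 17 tested rose and 3 fell. That was 23.5% and 17.6%, against 11.1% and 7.35% over all genes tested. The 4 that rose, KIN1, KIN2, ERD10 and LTI78, are dehydration and cold proteins, while the dehydrin genes COR47 and LTI30 were not called (adjusted p = 0.86 and 0.282). LTI78 lost its call without replicate a or b of either group (adjusted p of up to 0.1025). ERD10, a dehydrin, was at 1204, 1582 and 1118 CPM in RBH 2 h, against 492, 407 and 496 CPM in RB 3 h (log2 fold change 1.48, SE 0.21, adjusted p = 3.13e-05), and KIN2 was at 1492, 1624 and 1581 CPM, against 713, 491 and 729 CPM in RB 3 h. Both stood above the course. The 3 that fell, NCED3, ABI1 and ABI2, lay on the course. NCED3, the rate-limiting enzyme of abscisic acid synthesis, was at 3.07, 1.29 and 2.47 CPM in RBH 2 h, against 11.1, 12.6 and 16.5 CPM in RB 3 h (log2 fold change -2.48, SE 0.57, adjusted p = 0.00339). The phosphatase gene ABI2 was at 6.9, 6.46 and 8.45 CPM in RBH 2 h, against 25.8, 20.7 and 31.5 CPM in RB 3 h, and its water libraries were at 6.84 to 8.96 CPM. ABI1 fell by 0.99 (SE 0.21, adjusted p = 0.00146).

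SMR7 (AT3G27630) and SMR5 (AT1G07500), inhibitors of cyclin-dependent kinases that respond to DNA damage and oxidants, both rose. SMR5 was at 19.2, 25.8 and 20.1 CPM in RBH 2 h, against 5.11, 5.04 and 7.16 CPM in RB 3 h (log2 fold change 1.94, SE 0.34, adjusted p = 0.000261). SMR7 was at 35.3, 73.6 and 65.5 CPM in RBH 2 h, against 12.1, 15.1 and 17.2 CPM in RB 3 h (log2 fold change 2.02, SE 0.31, adjusted p = 7.1e-05). Both passed the test against the course, SMR7 not without RBH 2 h replicate b. They are the 2 called members of a DNA damage list of 11 genes, of which 4 were tested. That was 50% of those tested, against 11.1% called higher over all genes tested.

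Among genes of peroxide and superoxide removal, 2 of 22 tested rose and none fell, shares of 9.09% and 0%, against 11.1% and 7.35% over all genes tested. APX2, a cytosolic ascorbate peroxidase known from strong light, was at 14.6, 14.2 and 19.2 CPM in RBH 2 h, against 2.13, 1.01 and 1.43 CPM in RB 3 h (log2 fold change 3.25, SE 0.50, adjusted p = 0.000136), with no count in water or RB 1 h. MDAR1, which regenerates ascorbate, was at 313, 311 and 322 CPM in RBH 2 h, against 225, 212 and 202 CPM in RB 3 h (adjusted p = 0.0116), and lost its call without RBH 2 h replicate c (adjusted p = 0.0616) or RB 3 h replicate c (adjusted p = 0.0508). APX1 and the catalase gene CAT2 were not called. APX1 was at 2287, 2308 and 2227 CPM in RBH 2 h and 1689, 2380 and 2223 CPM in RB 3 h, and CAT2 at 98.9 to 121 CPM in RBH 2 h, against 105 to 145 CPM in RB 3 h.

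Glutathione transferases, which conjugate toxic compounds to glutathione, had overlapping totals in both groups while single members differed. Their summed level was 12551 ± 1081 CPM in RBH 2 h and 12703 ± 822 CPM in RB 3 h (SD, n = 3 each), against 4119 ± 501 CPM in water, and the ranges of the groups compared overlapped. Of 23 tested members 6 rose, 4 of them above the course, and 2 fell. Those shares were 26.1% higher and 8.7% lower, against 11.1% and 7.35% over all genes tested. Without RBH 2 h replicate c, GSTU13 alone of the 4 passed the test against the course, and GSTU12, ERD9 and GSTF3 did not. GSTU13 was at 1716, 1888 and 1671 CPM in RBH 2 h, against 859.8, 1046 and 1074 CPM in RB 3 h (log2 fold change 0.82, SE 0.17, adjusted p = 0.00122). GSTU10 was at 13.8, 23.3 and 26.2 CPM in RBH 2 h, against 49.4, 48.4 and 54.4 CPM in RB 3 h (log2 fold change -1.21, SE 0.26, adjusted p = 0.00208). The most abundant member, GSTF8, was not called (adjusted p = 0.319). Some of these genes are near-identical neighbours, so reads may be shared among them. Among glucosyltransferases, which attach sugars to small molecules, UGT73B5 stood above the course at 945, 1102 and 1084 CPM in RBH 2 h, against 357, 359 and 601 CPM in RB 3 h (adjusted p = 2.07e-04). UGT74F2, which glucosylates salicylate, stood below it at 13.8, 17.4 and 10.0 CPM in RBH 2 h, against 46.7, 40.8 and 40.8 CPM in RB 3 h (adjusted p = 5.98e-05), though not without RBH 2 h replicate c or after thinning to 1 depth. In the electrophile list that holds both, 2 of 15 tested members rose (13.3%) and 3 fell (20%), against 11.1% and 7.35% over all genes tested.

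Genes below the course included a transcription factor, cell wall enzymes and 1 member of the auxin list. WRKY31 (AT4G22070) was at 3.83, 3.23 and 1.76 CPM in RBH 2 h, against 19, 28.2 and 31.5 CPM in RB 3 h (log2 fold change -3.33, SE 0.36, adjusted p = 8.03e-07), and no other library was under 11.9 CPM. PME2 (AT1G53830), a pectin methylesterase of the cell wall, was at 2.3, 1.29 and 1.23 CPM in RBH 2 h, against 11.1, 15.1 and 10.0 CPM in RB 3 h (log2 fold change -3.02, SE 0.39, adjusted p = 8.83e-06). It averaged 44.0 CPM in water, 43.4 CPM at 1 h of RB and 21.9 CPM at 2 h, so the order of the dye times ran down towards RB 3 h and RBH 2 h lay past its end. XTH17 (AT1G65310), a xyloglucan-modifying wall enzyme, was at 1.53, 1.29 and 0.352 CPM in RBH 2 h, against 6.39, 12.1 and 5.73 CPM in RB 3 h (log2 fold change -3.32, SE 0.64). MAM1, which elongates methionine for aliphatic glucosinolates, was at 11.5, 5.17 and 9.16 CPM in RBH 2 h, against 41.8, 25.7 and 38 CPM in RB 3 h (log2 fold change -2.03, SE 0.30). BIA1, an acyltransferase that inactivates brassinosteroids, had a log2 fold change of -1.99 (SE 0.49). XTH17 did not pass the test against the course without RBH 2 h replicate c or after thinning to 1 depth. BIA1 passed it in 8 of 13 settings, not without RBH 2 h replicate b or c, without RB 3 h replicate a or c or after thinning, and was not called without RBH 2 h replicate c (adjusted p = 0.0751).

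In the auxin list, 7 of 18 tested members fell, 1 of them below the course, and none rose (median log2 fold change -0.57). The 7 were 38.9% of the list, against 7.35% over all genes tested. IAA7, a repressor of auxin-responsive transcription, was at 88.9, 67.8 and 52 CPM in RBH 2 h, against 185, 204 and 168 CPM in RB 3 h (log2 fold change -1.44, SE 0.22, adjusted p = 5.98e-05). It was below the course, but not without RBH 2 h replicate b or c. Its relative IAA16 was on the course, at 224, 212 and 207 CPM in RBH 2 h and 443, 406 and 401 CPM in RB 3 h, with 168 to 202 CPM in water. AUX1, the auxin influx carrier of the root tip, was at 35.3, 42.6 and 30.8 CPM in RBH 2 h, against 64.3, 73.6 and 62.3 CPM in RB 3 h (log2 fold change -0.90, SE 0.19, adjusted p = 0.00155). The PIN efflux carriers gave no call. With any 1 library left out, 5 or 6 members fell.

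Among the genes with the largest falls, several were near or under the water level in RBH 2 h. LECRKA4.2 (AT5G01550), a lectin-domain receptor kinase, was at 0.767, 1.94 and 1.41 CPM in RBH 2 h, against 21.7, 23.2 and 19.3 CPM in RB 3 h, with 1.71 to 3.74 CPM in water (log2 fold change -3.88, SE 0.39, adjusted p = 3.51e-07). CLE13 (AT1G73965), a secreted signal peptide, was at 3.07, 3.88 and 2.64 CPM in RBH 2 h, against 37.9, 35.8 and 32.2 CPM in RB 3 h, with 3.42 to 5.98 CPM in water (log2 fold change -3.53, SE 0.39, adjusted p = 1.07e-06). CP1 (AT4G36880), a cysteine proteinase, was at 9.97, 5.17 and 9.16 CPM in RBH 2 h, against 62, 59 and 84.5 CPM in RB 3 h (adjusted p = 2.12e-07). None of these 3 passed the test against the course. Others in this set included CYP89A7, a cytochrome P450, RABA2b, a membrane-traffic GTPase, and MYB42, a factor related to those of secondary walls. The set also held ZAT7, a zinc finger factor, and TCH4, a touch-induced xyloglucan-modifying enzyme. Across CYP89A7, RABA2b, MYB42, ZAT7 and TCH4, log2 fold changes ran from -3.54 in ZAT7 to -2.87 in TCH4. The group ranges of each did not overlap, which was a condition for entering this set.

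Heat shock was the list with the most called genes on the dye course. Of 33 tested chaperones and heat shock factors, 15 fell, all 15 on the course, and 4 rose (median log2 fold change -0.72). The 15 were 45.5% of the list, against 7.35% over all genes tested. The 4 were 12.1%, near the 11.1% over all genes tested. Their summed level was 7706.5, 11763 and 11249.8 CPM in RBH 2 h, against 17623, 18888 and 17993 CPM in RB 3 h. Along the course the sum was 747 to 881 CPM in water, 1847 to 2584 CPM at 1 h and 8368 to 12018 CPM at 2 h, so RBH 2 h overlapped RB 2 h. HSP70 (AT3G12580), a cytosolic chaperone, was at 850.1, 1369 and 1355 CPM in RBH 2 h, against 3279, 3465 and 3111 CPM in RB 3 h (log2 fold change -1.46, SE 0.21, adjusted p = 2.36e-05). HSP101, which resolves protein aggregates, was at 195, 293 and 376 CPM in RBH 2 h, against 506, 726 and 776 CPM in RB 3 h. HSP90.1 and the mitochondrial HSP23.6-MITO fell by 1.33 (SE 0.24) and 1.57 (SE 0.27) on the log2 scale.

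The 4 chaperones that rose, a share near that over all genes tested, include HSP18.2 (AT5G59720), a small cytosolic heat shock protein. It was at 166, 199.6 and 209 CPM in RBH 2 h, against 98.2, 82.1 and 85.2 CPM in RB 3 h (log2 fold change 1.11, SE 0.18, adjusted p = 0.000105). It stood above the course in all 13 settings. Hsp70b (AT1G16030), a stress-induced relative of HSP70, was at 320.4, 529.6 and 558 CPM in RBH 2 h, against 246, 307 and 229 CPM in RB 3 h (log2 fold change 0.85, SE 0.21, adjusted p = 0.00568). HSP21, of plastids, was at 9.2, 26.5 and 23.3 CPM in RBH 2 h, against 6.82, 5.54 and 5.01 CPM in RB 3 h (adjusted p = 0.0137). The fourth was ATHSP22.0, with a log2 fold change of 0.83 (SE 0.28, adjusted p = 0.0479). Without RBH 2 h replicate c 1 chaperone rose, HSP18.2, with Hsp70b at adjusted p = 0.0531 and HSP21 at adjusted p = 0.0663, and without RBH 2 h replicate b or RB 3 h replicate b 2 rose.

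**Figure D4:**
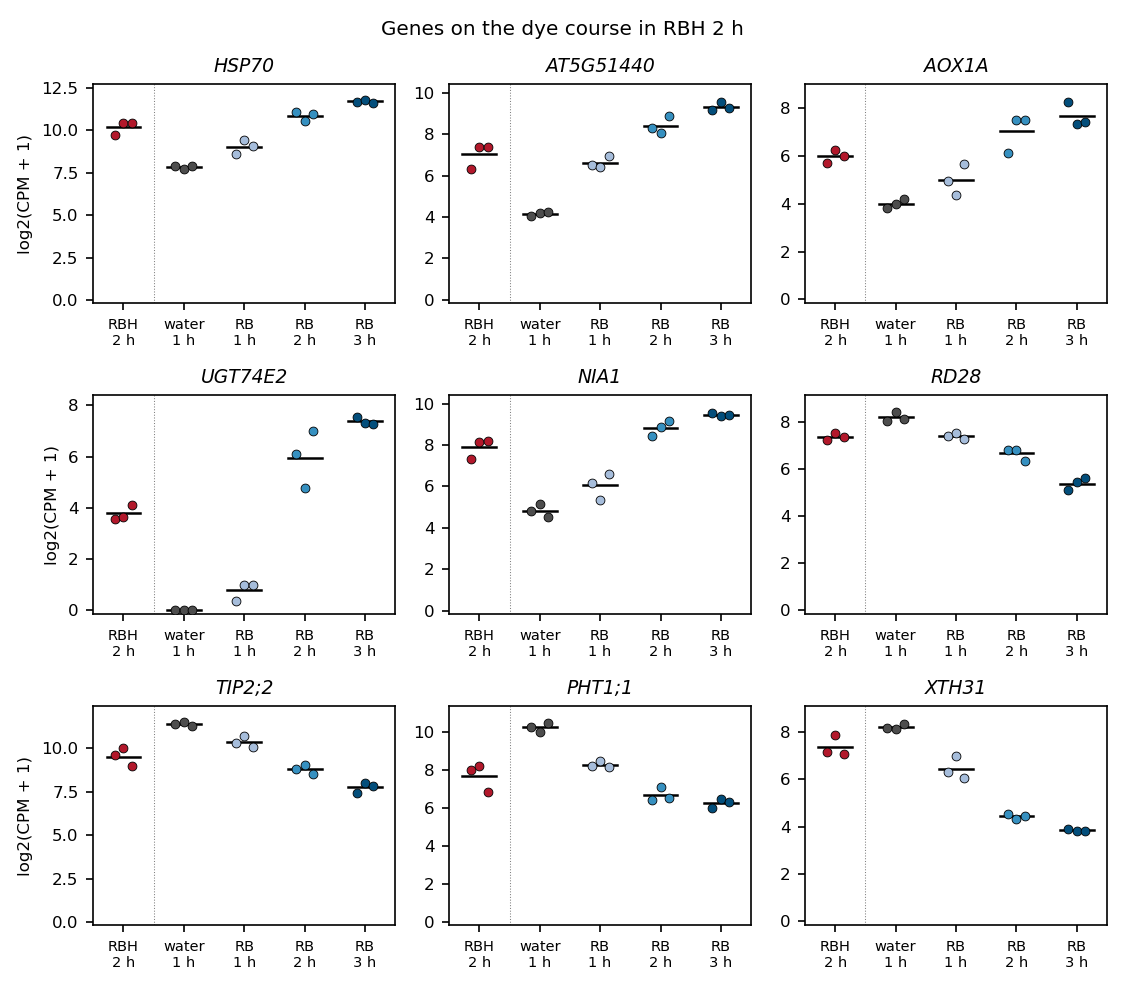
Levels of 9 genes on the dye course, as log2(CPM + 1), in RBH 2 h (left of the dotted line) and in water and RB at 1, 2 and 3 h, 1 point per library and a bar at the mean of 3. HSP70, AT5G51440, AOX1A, UGT74E2 and NIA1 are lower in RBH 2 h than in RB 3 h and higher than in water, and RD28, TIP2;2, PHT1;1 and XTH31 show the reverse.

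The mitochondrial retrograde list, nuclear genes that answer to disturbed mitochondria, fell in 7 of 10 tested members and rose in none. Of the 7 (70%, against 7.35% over all genes tested), 6 lay on the course. The list's median log2 fold change was -1.10. Its sum was 492, 674 and 735 CPM in RBH 2 h, against 1658, 1661 and 1648 CPM in RB 3 h. AT5G51440, a mitochondrial small heat shock protein that also stands in the heat shock list, was at 79.7, 164 and 166 CPM in RBH 2 h, against 567, 738 and 619 CPM in RB 3 h (log2 fold change -2.22, SE 0.25, adjusted p = 1.66e-06). AOX1A, the alternative oxidase, was at 51.4, 74.3 and 63.6 CPM in RBH 2 h, against 304, 162 and 168 CPM in RB 3 h (log2 fold change -1.75, SE 0.34, adjusted p = 0.00129). BCS1 (AT3G50930), an outer-membrane protein of mitochondria and also a marker of singlet oxygen, was at 19.2, 20.7 and 12.5 CPM in RBH 2 h, against 67.1, 60.5 and 75.9 CPM in RB 3 h (log2 fold change -2.02, SE 0.35, adjusted p = 0.000246).

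Of 11 singlet oxygen markers, taken from mutants that release this oxidant, 4 fell, all on the course, and 1 rose (median log2 fold change -0.62). These were 36.4% lower and 9.09% higher, against 7.35% and 11.1% over all genes tested. AT1G19020 was at 754, 882 and 699 CPM in RBH 2 h, against 1288, 1509 and 1655 CPM in RB 3 h (log2 fold change -0.93, SE 0.17, adjusted p = 0.000443), with 81.5 to 102 CPM in water. RHL41, the zinc finger factor also called ZAT12, was at 578, 718 and 521 CPM in RBH 2 h, against 1109, 1147 and 1481 CPM in RB 3 h (adjusted p = 0.00149). RRTF1 was the member that rose. UGT74E2 (AT1G05680), which glucosylates the auxin precursor indole-3-butyric acid, had no count in water and was at 10.7, 11.6 and 16.4 CPM in RBH 2 h, against 184, 158 and 153 CPM in RB 3 h (log2 fold change -3.60, SE 0.43, adjusted p = 4.97e-05). NIA1, nitrate reductase, was at 162, 285 and 296 CPM in RBH 2 h, against 749, 674 and 691 CPM in RB 3 h, with 22.2 to 34.4 CPM in water.

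Aquaporins, the water channels of the plasma membrane and vacuole, lay between water and RB 3 h from the other side. Of 20 tested members 9 rose, all 9 on the course, and 2 fell. That was 45% and 10%, against 11.1% and 7.35% over all genes tested. The list's summed level was 12885, 16381 and 9071 CPM in RBH 2 h, against 6813, 7477 and 7836 CPM in RB 3 h and 27296 to 28698 CPM in water. RD28, a plasma membrane aquaporin, was at 153, 187 and 165 CPM in RBH 2 h, against 33.7, 42.8 and 48 CPM in RB 3 h (log2 fold change 2.04, SE 0.20, adjusted p = 2.32e-07). TIP2;2, of the vacuole, was at 791, 1029 and 503 CPM in RBH 2 h, against 174, 259 and 226 CPM in RB 3 h (log2 fold change 1.82, SE 0.23, adjusted p = 9.02e-06). The 2 that fell were TIP4;1, below the course except without RBH 2 h replicate c, and PIP3, whose group ranges overlapped. PIP3 lost its call when any 1 library other than RBH 2 h replicate a was left out (adjusted p of up to 0.163).

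The wall enzyme XTH31 (AT3G44990) was at 139, 229.9 and 132 CPM in RBH 2 h, against 14.1, 13.1 and 12.9 CPM in RB 3 h (log2 fold change 3.62, SE 0.26, adjusted p = 5.28e-09), with 279 to 318 CPM in water and 65.3 to 125 CPM at 1 h of RB. In the nitrogen and phosphate list, 2 of 14 tested members rose and 2 fell (14.3% each, against 11.1% and 7.35% over all genes tested). PHT1;1, the main phosphate transporter of roots, was at 255, 291 and 114 CPM in RBH 2 h, against 63.9, 88.7 and 77.4 CPM in RB 3 h (log2 fold change 1.51, SE 0.27, adjusted p = 0.000422), with 1026 to 1411 CPM in water. AMT1;3, an ammonium transporter, also rose (log2 fold change 1.83, SE 0.44, adjusted p = 0.00432). Of 4 tested iron genes 1 rose (25%, against 11.1% over all genes tested) and none fell. The member that rose was NAS1, which makes the metal chelator nicotianamine. Its call ended without RBH 2 h replicate b (adjusted p = 0.0614) or c (0.0723) or RB 3 h replicate b (0.0727).

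Chaperones of the endoplasmic reticulum lay on the course in the same sense: 5 of 16 tested rose and 1 fell. These shares were 31.2% and 6.25%, against 11.1% and 7.35% over all genes tested. SHD, the reticulum's HSP90, was at 721, 532 and 623 CPM in RBH 2 h, against 304, 334 and 292 CPM in RB 3 h, with 885 to 1019 CPM in water (log2 fold change 1.01, SE 0.18, adjusted p = 0.000303). The calreticulins CRT1a and CRT1b rose by 1.10 (SE 0.20) and 0.94 (SE 0.19) on the log2 scale. The member that fell was BZIP60, a transcription factor of the unfolded protein response, at 6.13, 6.46 and 2.82 CPM in RBH 2 h, against 15.3, 16.1 and 9.31 CPM in RB 3 h (adjusted p = 0.0102), lost without RBH 2 h replicate c (0.0939) or RB 3 h replicate a (0.0564). Without RB 3 h replicate c, 3 members rose and 2 fell, and without RBH 2 h replicate a 3 fell.

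Genes of ribosome production were higher in RBH 2 h throughout their called members. Of 34 cytosolic ribosomal protein genes, 15 rose (44.1%, against 11.1% over all genes tested) and none fell (median log2 fold change 0.56). Of the 15, 4 lay on the course and 11 past the means without passing the test. The sum of the list was 70304, 56502 and 64600.4 CPM in RBH 2 h, against 43336, 41196 and 40137 CPM in RB 3 h and 57859 to 60502 CPM in water. P40, a protein of the small subunit, was at 4170, 3112 and 3495 CPM in RBH 2 h, against 1559, 1503 and 1720 CPM in RB 3 h (log2 fold change 1.17, SE 0.20, adjusted p = 0.000237). As background, ribosomal proteins are encoded by several near-identical genes each, so reads may be split among copies. In ribosome assembly, 8 of 13 tested members rose (61.5%, against 11.1% over all genes tested) and none fell (median 0.90). All 8 lay past the means without passing the test. NUC-L1, nucleolin, was at 1207, 869 and 1126 CPM in RBH 2 h, against 337, 405 and 499 CPM in RB 3 h, with 767 to 812 CPM in water (log2 fold change 1.37, SE 0.18, adjusted p = 1.19e-05). NOP56, of the complex that methylates ribosomal RNA, was at 708, 367 and 485 CPM in RBH 2 h, against 138, 179 and 160.5 CPM in RB 3 h (log2 fold change 1.71, SE 0.24). The summed level of the assembly list was 6995, 5029.9 and 6603 CPM in RBH 2 h, against 2964, 3227 and 3298 CPM in RB 3 h.

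Several lists gave few calls or counts that turned on 1 library. In the WRKY and zinc finger list, 2 of 22 tested rose (9.09%) and 4 fell (18.2%), against 11.1% and 7.35% over all genes tested. With any 1 library left out, 0 or 1 rose. In the list of salicylate, immunity and MAP kinase genes, none of 13 rose and 2 fell (15.4%, against 7.35% over all genes tested). The 2 were PAD4 and CBP60G, both of salicylate signalling. Their log2 fold changes were -1.52 (SE 0.30, adjusted p = 8.69e-04) and -1.09 (SE 0.35, adjusted p = 0.0321). CBP60G lost its call without RBH 2 h replicate b or c or RB 3 h replicate b or c. Of 43 proteasome subunits 6 rose (14%, against 11.1% over all genes tested) and none fell, a count of 1 to 3 when any 1 library was left out. Of 10 autophagy genes 2 fell (20%, against 7.35% over all genes tested), ATG8C and ATI1. None fell without RB 3 h replicate a or c. For the ERF and DREB list, 1 member fell without RBH 2 h replicate a or RB 3 h replicate a, and 2 without replicate c of either group. For the glutathione transferases, 1 fell without replicate c of either group. In the electrophile list 1 rose without RBH 2 h replicate c or RB 3 h replicate a or b, in the scavenging list 1 rose without RB 3 h replicate c, and in the nitrogen and phosphate list 4 rose without RBH 2 h replicate c, while 1 fell without that library or RB 3 h replicate a or b.

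**Figure D5:**
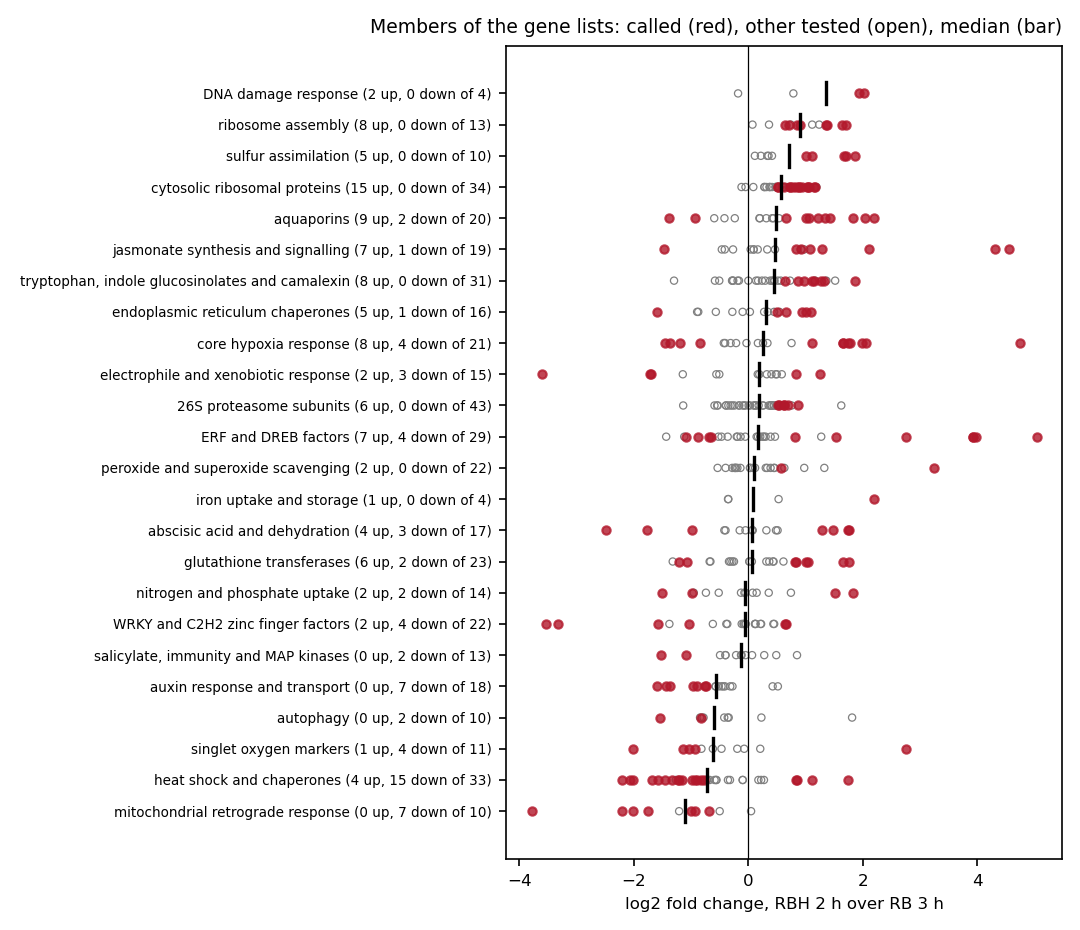
Log2 fold change of RBH 2 h over RB 3 h for every tested member of the 24 gene lists, with called members in red, other tested members as open circles and a black bar at the list's median, sorted by that median. Medians run from -1.10 in the mitochondrial retrograde list to 1.36 in the DNA damage list, which holds 4 tested genes.

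Markers of some cell types also differed between the groups. All 17 tested photosynthesis genes had log2 fold changes above 0, with a median of 1.24. Of the 17, 11 were called (64.7%, against 11.1% called higher over all genes tested). None of the 23 photosynthesis genes in the table was at 0 in any group. LHB1B2, of the light-harvesting complex, was at 434, 348 and 334 CPM in RBH 2 h, against 86.7, 109 and 90.3 CPM in RB 3 h (adjusted p = 5.98e-05), with 372 to 517 CPM in water. For CAB3, LHCB3 and RBCS1A the RBH 2 h replicate c library was highest: RBCS1A, the small subunit of Rubisco, was at 39.9, 78.1 and 227 CPM in RBH 2 h, against 34.3, 44.8 and 35.8 CPM in RB 3 h. Without that library 5 of the photosynthesis genes rose. Of 7 endodermal markers 2 rose (28.6%, against 11.1% over all genes tested). CASP1 of the Casparian strip was at 318, 509 and 365 CPM in RBH 2 h, against 178, 193 and 189 CPM in RB 3 h (adjusted p = 1.18e-04). PER64, a peroxidase of the same structure, had a log2 fold change of 1.83 (SE 0.23). The 5 phloem markers had a median log2 fold change of 0.19, with 3 above 0. Of the 5, 2 were called lower (40%, against 7.35% over all genes tested). With any 1 library other than RBH 2 h replicate c left out, 1 was called lower. SUC2, the sucrose loader, was at 41.4, 56.8 and 88.1 CPM in RBH 2 h, against 127, 101 and 162 CPM in RB 3 h (adjusted p = 0.00234). Markers of xylem, root cap and dividing cells (2 tested each) gave no call in any setting. None of the 7 tested root hair markers was called with all libraries in edgeR, but 2 were called lower without RBH 2 h replicate b, 1 without RB 3 h replicate a and 1 by DESeq2. Root hair markers summed to 9.69 to 37.5 CPM in RBH 2 h, 15.6 to 34.3 CPM in RB 3 h and 184 to 228 CPM in water, so both groups were low and overlapped. How far these markers bear on the other gene groups was not tested.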

How the data were processed

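Root RNA of 15 libraries (5 groups of 3) was made into 3′ tag libraries with the MARS-seq protocol and sequenced on a NextSeq 500, per the labels' protocols. Per the submitters' processing notes, the tools were STAR 2.4.2a, HTSeq, cutadapt, bcl2fastq and DESeq2. No source used here states the genome build, the tools' settings or how molecular identifiers were collapsed, so no coordinates or sequences are printed. The deposited raw counts per gene and library were used as they stand. The log2 fold changes and adjusted p-values of the authors' deposited table were used only where that table is named, and 30 other per-library columns were not used. Symbols came from the TAIR10.1 annotation, which held 14356 of 14391 loci (6666 with a symbol).

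Library totals ran from 897728 to 6230975, so that 1 count stood for 0.160 to 1.11 CPM. Counts were fitted with edgeR 4.0.16 in R 4.3.3 (TMM scaling, filterByExpr, robust quasi-likelihood F test, 1 coefficient per group over all 15 libraries), with Benjamini-Hochberg adjustment over 9891 genes. The other 4500 genes were set aside. The biological coefficient of variation was 20.6%. The standard error is the absolute log2 fold change divided by the square root of F. CPM values use TMM-scaled totals. The fit was tested on simulated data. DESeq2 1.42.0 served as an alternative. Replicates are separate pools of seedlings per the labels' protocols, and every pair within a group differed beyond sampling noise (chi-square per degree of freedom from 3.00 to 11.1).

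Named genes were the 12 highest and 12 lowest called genes that had a symbol, averaged at least 10 counts and had ranges that did not overlap, the 6 farthest outside the dye course on each side under the same conditions, up to 3 per list by smallest p, and members needed to describe a list. A gene that this rule names is not reported here. The members compared, the 24 pathway lists and the 7 marker lists were chosen with earlier results of these data known. Intervals and floors cover counting error only. A planned count of promoter motifs was not run.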

Additional observations from a re-analysis of the deposited data

How the results depend on the processing

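Against 1822 genes called between RBH 2 h and RB 3 h, 1832 were called with DESeq2's size factors in edgeR, 1809 without the filter on low counts, 1761 with DESeq2's Wald test, 2235 with only the 6 libraries compared, 2270 without RB 1 h replicate b and RB 2 h replicate a, 1518 after thinning to 1 depth and 1829 without ATMG00020. With 1 of the 6 libraries left out the count was 1220 to 1584. Genes outside the dye course then numbered 202 to 305, with the lowest value without RBH 2 h replicate c. Those below it numbered 37 (without RBH 2 h replicate c) to 89. Genes called lower in RBH 2 h numbered 453 (without RB 3 h replicate a) to 659. The causes were not tested. The replicate letters were not treated as pairs. Deviations of same-letter libraries of the 2 groups from their group means correlated at -0.294, -0.00433 and -0.299. These values cannot decide whether the letters pair the samples, since deviations within a group of 3 constrain one another. A fit with the replicate letter as a block called 1605 genes, 1584 of them among the 1822. Over the named genes and settings, 1878 values kept their direction and side of the threshold, 91 kept the direction and lost the call, 8 gained it and 6 changed sign. None of the genes with a changed sign was called in any setting where it changed. With 1 library left out, the log2 fold change of AOS ran from -0.0207 (without RB 3 h replicate b) to 0.224, that of OPR3 from -0.0406 (without RBH 2 h replicate c) to 0.190, that of STZ from -0.230 to 0.0157 (without RB 3 h replicate c) and that of APX1 from -0.0159 (without RB 3 h replicate a) to 0.217. After thinning, AOS was at -0.0420 and OPR3 at -0.0284. Low depth limits genes of a few counts, such as CXE17, XTH17 and ddf2.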
